A study of Mus musculus with 66 samples.

Results

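Plasma from 8 C3H mice with hepatocellular carcinoma (HCC) was divided into groups chosen by how much of the circulating miRNA was miR-122-5p. In 4 mice miR-122-5p made up at least 25% of all miRNA UMIs (unique molecular identifiers, barcodes that count RNA molecules before amplification), and in the other 4 it made up less. These 8 mice are among 66 samples of the series, and the 5 C3H mice without HCC are given as reference. All 13 were males of the C3H inbred strain, for which the labels give more than 12 months after radiation, and the labels set them apart by histology, HCC or non-HCC. The study's methods give 3 radiation-induced and 5 spontaneous tumors, and the labels do not say which mouse had which. Blood was taken by cardiac puncture at necropsy and small RNA was sequenced from the plasma. HCC mice 1, 2, 5 and 6 form the high-share group and HCC mice 3, 4, 7 and 8 the low-share group, with the numbers as in the labels. Since the groups were made from a value measured in these same libraries, differences between them are given as a description, with no test. The test given beside single miRNAs, called the labelled test, compares all 8 mice with HCC and the 5 without, so it shares its HCC mice with the description.

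A miRNA is a short RNA that guides silencing proteins to messenger RNAs, mostly through pairing of its seed, bases 2 to 8. Hepatocytes make miR-122 in very large amounts, and injured or dying hepatocytes release it into blood, where miRNAs persist inside vesicles or bound to protein. Plasma therefore mixes miRNAs of liver, blood cells, vessel wall and muscle. A plasma level does not tell how many cells released a miRNA from how much each cell released, and the 2 cannot be told apart here.

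The mature sequences below are those of the miRNAs that separated the groups or that contrast with a relative of the same seed. They are the RefSeq entries for GRCm38.p6, 5′ to 3′, with the seed in capitals, and 1570 of the 1838 miRNA names in the table matched such an entry. The first set holds miRNAs of a liver list used below, with miR-152-3p as a seed relative of miR-148a-3p. In this set miR-192-5p and miR-215-5p also share a seed.
miR-192-5p: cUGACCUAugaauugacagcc
miR-215-5p: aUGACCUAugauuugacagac
miR-194-5p: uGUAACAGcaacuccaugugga
miR-148a-3p: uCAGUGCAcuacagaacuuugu
miR-152-3p: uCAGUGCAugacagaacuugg
miR-802-5p: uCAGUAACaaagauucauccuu
miR-455-5p: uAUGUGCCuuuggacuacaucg
The second set holds the miRNA that differed most between the groups, its relative with the same seed, and 3 further miRNAs that were higher in the high-share mice.
miR-146b-5p: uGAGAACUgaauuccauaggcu
miR-146a-5p: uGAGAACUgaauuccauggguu
miR-34a-5p: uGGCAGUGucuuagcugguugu
miR-21a-5p: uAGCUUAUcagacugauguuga
miR-137-3p: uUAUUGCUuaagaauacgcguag
The third set holds epithelial miRNAs, in which miR-200b-3p, miR-429-3p and miR-200c-3p share 1 seed and miR-200a-3p and miR-141-3p another.
miR-200b-3p: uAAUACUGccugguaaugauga
miR-429-3p: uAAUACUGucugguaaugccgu
miR-200c-3p: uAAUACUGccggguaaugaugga
miR-200a-3p: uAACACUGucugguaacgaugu
miR-141-3p: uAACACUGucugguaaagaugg
miR-183-5p: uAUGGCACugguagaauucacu
miR-96-5p: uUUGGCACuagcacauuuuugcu
miR-182-5p: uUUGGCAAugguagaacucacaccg
The last set holds miRNAs of heart muscle, which were lower in the high-share mice.
miR-208a-3p: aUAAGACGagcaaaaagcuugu
miR-208b-3p: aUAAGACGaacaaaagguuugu
miR-499-5p: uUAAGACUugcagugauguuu

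The values that made the groups were as follows. MiR-122-5p was 41.0%, 29.2%, 28.3% and 42.7% of miRNA UMIs in HCC mice 1, 2, 5 and 6, and 2.2%, 9.53%, 2.39% and 17.8% in HCC mice 3, 4, 7 and 8. The lowest share in the high group was therefore 28.3% and the highest in the low group 17.8%, on either side of the threshold. In non-HCC mice the share ran from 0.18% to 0.424%, so each low-share mouse was also above each non-HCC mouse. In UMIs, miR-122-5p stood at 4184602, 4166263, 3957843 and 4157290 in mice 1, 2, 5 and 6, at 229906, 1197518, 282512 and 1690800 in mice 3, 4, 7 and 8, and at 23049 to 45187 in non-HCC mice. The 4 high counts spanned 1.06-fold, while in the same libraries the spike-in UniSP2 spanned 3.33-fold and the UMIs of all other miRNAs 1.81-fold. They were the largest 4 entries of the table, just above 3878330 UMIs of miR-16-5p in non-HCC mouse 4. Whether an upper limit of the count held miR-122-5p down in these libraries was not tested. The other arm of the same hairpin, miR-122-3p, spanned 2.74-fold, with 1027, 2613, 2554 and 953 UMIs in mice 1, 2, 5 and 6 against 90 to 771 in the low-share and 17 to 37 in the non-HCC mice.

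Total miRNA UMIs ran from 9735602 to 14247488 in the high-share, from 9513136 to 12572301 in the low-share and from 10467560 to 13962539 in the non-HCC mice, so depth was alike. The synthetic RNAs UniSP2 and UniSP4, added to each sample before RNA isolation, took fewer UMIs in 3 of the 4 high-share mice than in any other mouse. Their mean, which is almost wholly UniSP2 since UniSP4 had 225 to 1008 UMIs in HCC mice, was 276586.5, 87617, 83039 and 142916.5 in mice 1, 2, 5 and 6 and 437952.5, 189743, 469953 and 342878 in mice 3, 4, 7 and 8. On the spike-in scale 504 of 528 miRNAs then had a higher mean in the high-share mice, with a median difference of 1.34 log2 units over all 528 miRNAs with a mean of at least 50 UMIs in the HCC mice. On the TMM scale (trimmed mean of M-values, computed with both miR-122 arms left out), which sets most miRNAs equal between libraries, the median was 0.04. Both scales are given below, and a difference on the spike-in scale is read relative to 1.34. The lowest value above 0 in the table was 10, so an entry of 0 may stand for any count below 10 UMIs. The minimum is a mean over all HCC mice, so a miRNA near it can be kept only through the mice where it is high. Among those named below, miR-194-1-3p, miR-194-2-3p, miR-455-3p, miR-3113-5p, miR-200a-5p, miR-136-5p and miR-466d-3p were kept only through the high-share mice. MiR-208a-3p, miR-129-5p, miR-351-3p and miR-450b-5p were kept only through the low-share mice, and miR-465a-5p only through mouse 4 of that group.

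**Figure D1:**
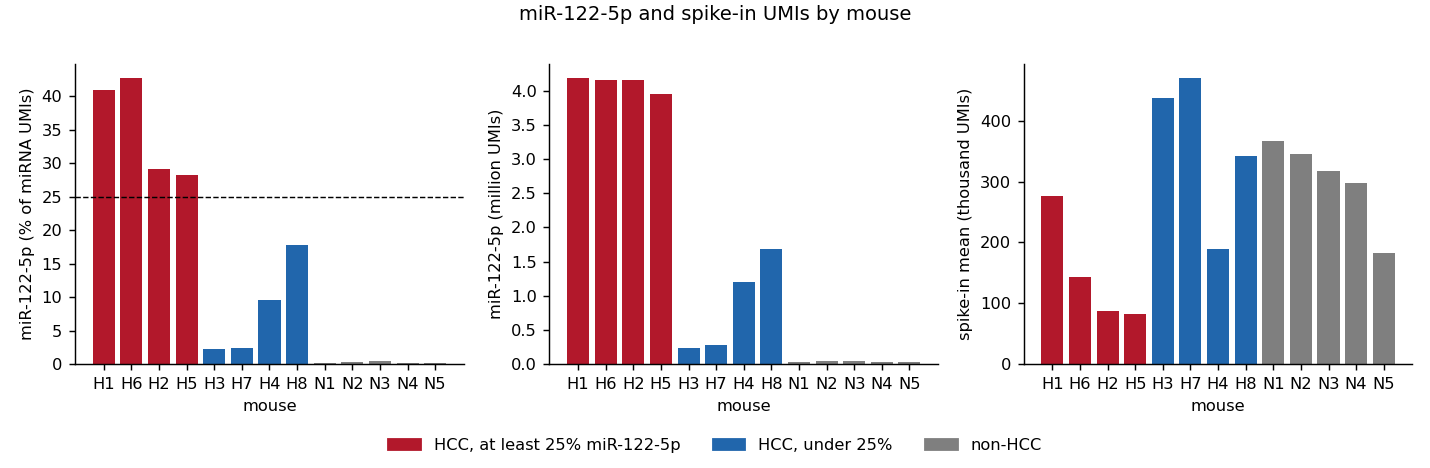
MiR-122-5p as a percent of miRNA UMIs (left, dashed line at 25%), miR-122-5p in UMIs (middle) and the spike-in mean of UniSP2 with UniSP4 in UMIs (right), scaled as the axes state, 1 bar for each mouse (H, HCC; N, non-HCC). The 4 high-share mice stand at 3957843 to 4184602 UMIs of miR-122-5p, and 3 of them have the 3 lowest spike-in means of the 13 mice.

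The 8 HCC libraries held 3 pairs that were nearly alike. Over these 528 miRNAs, the centred log2 levels of mice 1 and 6 correlated with r = 0.811, those of mice 2 and 5 with r = 0.916 and those of mice 3 and 7 with r = 0.801. Outside these pairs, the highest r among HCC mice was 0.39, between high-share mouse 6 and low-share mouse 8. Mouse 1 correlated with high-share mice 2 and 5 at 0.289 and 0.24. With low-share mice 8, 4, 3 and 7 its r was 0.365, 0.353, -0.266 and -0.3. Non-HCC mice ranged from 0.57 to 0.69 with each other. The points of such a correlation share a library and its depth. The median absolute log2 ratio within the pairs was 0.175, 0.175 and 0.192, against at least 0.52 between other HCC mice and at least 0.254 between non-HCC mice. The UMI counts within a pair differed by more than counting noise, with chi-square over degrees of freedom of 49.7, 91.1 and 127, against 182 for non-HCC mice 1 and 4. Repeat libraries of 1 plasma could differ as much as a pair, so this does not show that the members of a pair are independent. Each was counted as 1 sample because the labels name it as a separate mouse. Results with each pair summed, which leaves 2 high-share against 3 low-share profiles, are given where they matter.

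**Figure D2:**
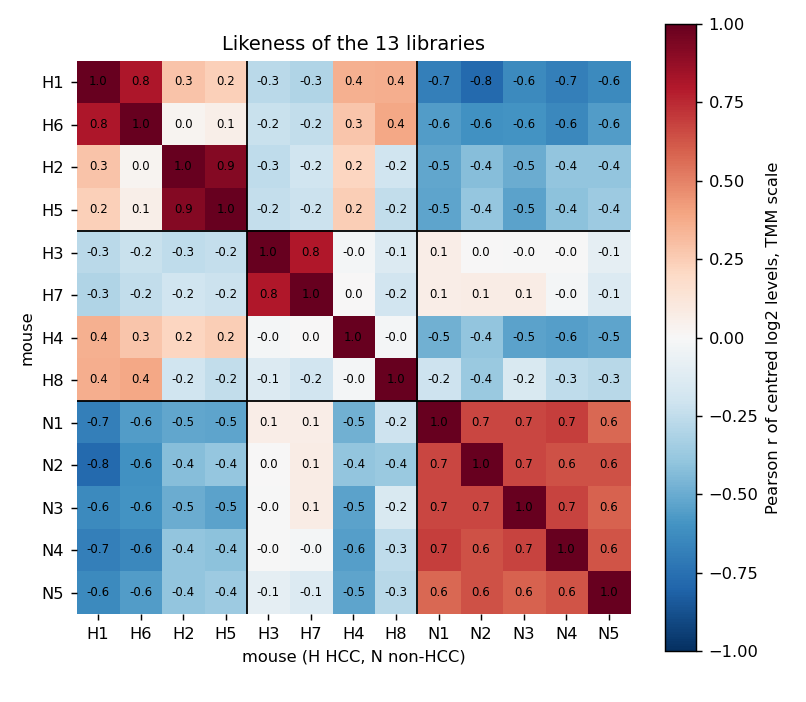
Pearson r of centred log2 levels (TMM scale, 528 miRNAs) between all 13 libraries, as colour from -1 to 1 and as printed values; black lines divide high-share HCC, low-share HCC and non-HCC mice. Mice 1 and 6, 2 and 5, and 3 and 7 form 3 pairs with r of 0.801 to 0.916, and the pairs within the high-share group are unlike each other.

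Neither group was uniform. On the TMM scale the median absolute difference between mice 1 and 6 and mice 2 and 5 was 0.91 log2 units over the 528 miRNAs. Between mice 3 and 7 and mice 4 and 8 of the low-share group it was 0.76, and between the high-share and low-share groups it was 0.63. The first 2 values compare means of 2 mice and the last means of 4. Means of fewer mice tend to differ more, so the order of these values does not rank the spreads. Within the high-share group, miRNAs higher by over 1 log2 unit in mice 1 and 6 numbered 76, and 164 were higher by as much in mice 2 and 5. What all 4 high-share mice had in common is described first and how the pairs differed after it.

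On the spike-in scale, all 4 high-share mice lay above all 4 low-share mice in 59 of 528 miRNAs (11.2%) and below them in none (0.0%). On the TMM scale they lay above in 59 (11.2%) and below in 18 (3.41%). The miRNAs above on both scales numbered 34, and 23 were above also as a share of the UMIs without miR-122. HCC mouse 4 limited these counts: without it, 281 miRNAs were above on the spike-in scale, and 105 were above and 52 below on the TMM scale. Without HCC mouse 1, 152 were above on the spike-in scale and 29 below on the TMM scale. Fewer mice make separation easier, so leaving out a mouse can only raise such counts, and the share over all miRNAs is given beside them below. Against the 5 non-HCC mice, the high-share mice were all above in 176 miRNAs (33.3%) and all below in 1 (0.189%) on the spike-in scale, and above in 137 (25.9%) and below in 93 (17.6%) on the TMM scale. The low-share mice were all above the non-HCC mice in 21 (3.98%) and below in 3 (0.568%) on the spike-in scale, and above in 71 (13.4%) and below in 39 (7.39%) on the TMM scale. In the test of HCC against non-HCC mice with edgeR, at an adjusted p of 0.05, 109 of 1452 miRNAs were higher (7.51%) on the spike-in scale, where none was lower at that threshold and 283 had an unadjusted p under 0.05 in either direction. When 1 mouse was left out, the 109 became 44 to 157, with 44, 47, 47 and 53 without non-HCC mouse 1, 2, 3 or 4 and 65 without HCC mouse 2, and with the pairs summed it was 97. On the TMM scale 115 of 1450 were higher (7.93%) and 22 lower (1.52%). Where a miRNA was high in the high-share mice, these same mice entered the labelled test.

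**Figure D3:**
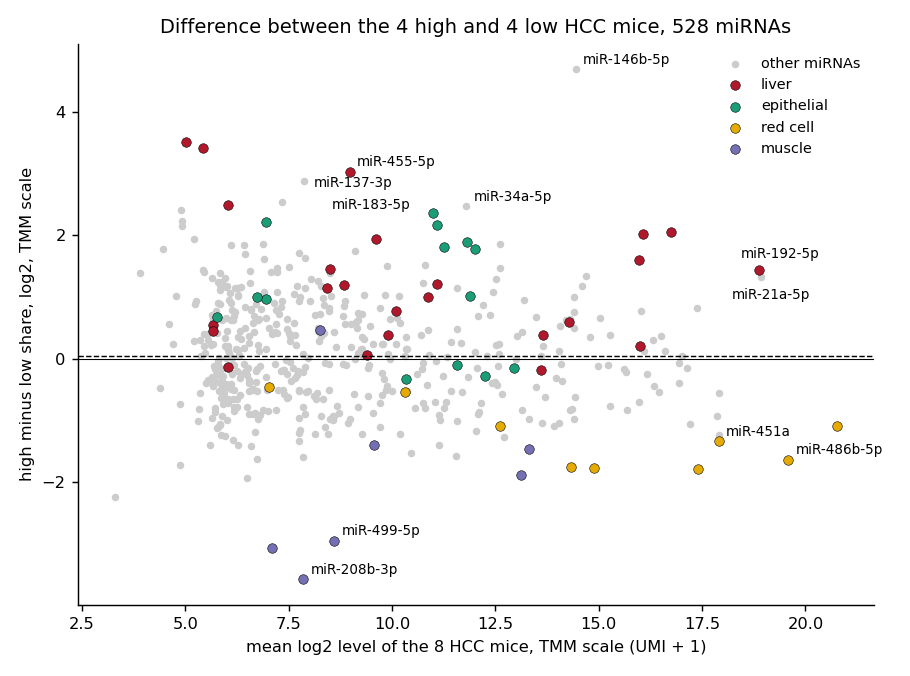
Difference of mean log2 level, high-share minus low-share HCC mice (vertical axis, TMM scale), against the mean log2 level of the 8 HCC mice (horizontal axis) for 528 miRNAs; colours mark liver, epithelial, red cell and muscle lists and the dashed line is the median of 0.04. MiR-146b-5p stands apart at 4.69, liver miRNAs lie mostly above the median, red cell miRNAs lie below it, and miR-208b-3p is lowest at -3.58.

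Liver miRNAs other than miR-122 were higher where miR-122-5p was high, but the low-share mice were not alike in them. The liver list had 26 entries, of which 24 reached the minimum. Not all of them were abundant in these plasmas, and miR-455-3p had 0 to 383 UMIs in the HCC mice. Of these 24, 9 lay above on the TMM scale (37.5%, against 11.2% of all) and 6 on the spike-in scale. The 9 include miR-194-1-3p and miR-194-2-3p, which reached the minimum only through the high-share mice. The median difference of the 24 was 1.17 on the TMM scale and 2.47 on the spike-in scale. Summed, the list took 21.3%, 22.0%, 13.8% and 14.3% of the UMIs without miR-122 in mice 1, 6, 2 and 5. It took 3.26%, 3.08%, 10.9% and 7.79% in mice 3, 7, 4 and 8 and 1.47% to 1.76% in non-HCC mice. By the labelled test, 12 of 26 were higher in HCC on the spike-in scale (7.51% of all miRNAs were) and 13 on the TMM scale (7.93% of all). On the TMM scale 1, miR-215-3p, was lower (1.52% of all). Without mouse 4, 22 of the 24 lay above on the spike-in scale (53.2% of all miRNAs did) and 14 on the TMM scale (19.9% of all).

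MiR-192-5p, an abundant miRNA of liver and gut, had 735197, 690719, 785081 and 781432 UMIs in mice 1, 6, 2 and 5. It had 148990, 162530, 861277 and 358393 in mice 3, 7, 4 and 8, and 51392, 62993, 40027, 54207 and 45370 in the non-HCC mice. Mouse 4, in the low-share group, thus held the most UMIs of miR-192-5p of all. The difference between groups was 1.43 on the TMM scale (SD 0.20 in the high and 0.79 in the low group) with no overlap, and 2.73 on the spike-in scale with overlap. The labelled test had it higher in HCC by 4.51 ± 0.87 (SE) log2 units on the spike-in scale (edgeR adjusted p = 0.00566). MiR-802-5p, a liver miRNA of glucose metabolism, was likewise highest in mouse 4, with 3052, 2904, 3259 and 3362 UMIs in mice 1, 6, 2 and 5 and 556, 582, 4711 and 2854 in mice 3, 7, 4 and 8. The groups overlapped on both scales, and non-HCC mice had 230 to 343.

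The ratio of miR-122-5p to miR-192-5p within a library needs no scale. It was 5.69, 6.02, 5.31 and 5.06 in mice 1, 6, 2 and 5, and 1.54, 1.74, 1.39 and 4.72 in mice 3, 7, 4 and 8. Non-HCC mice had 0.448 to 1.11. Mouse 8 therefore lay close to the high-share mice in this ratio and mouse 4 close to mice 3 and 7. Against miR-802-5p, the ratio was 1180 to 1430 in the high-share mice, 414, 485, 254 and 592 in mice 3, 7, 4 and 8, and 96.3 to 193 in non-HCC mice. Since miR-122-5p chose the groups, these ratios are a description.

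Other liver miRNAs separated the groups more evenly. MiR-148a-3p had 216920, 236314, 204734 and 191427 UMIs in mice 1, 6, 2 and 5 and 39686, 32772, 95724 and 69036 in mice 3, 7, 4 and 8, with 11629 to 24581 in non-HCC mice. The lowest high-share count was above the highest low-share count, and the difference was 2.06 on the TMM scale (SD 0.07 and 0.39) and 3.35 on the spike-in scale. MiR-152-3p, with the same seed, was higher by 1.86 on the TMM scale and also did not overlap, whereas miR-148b-3p of that seed differed by -0.36 with overlap. MiR-194-5p had 121168, 113741, 142305 and 149125 UMIs in mice 1, 6, 2 and 5 and 20512, 23914, 56478 and 48480 in mice 3, 7, 4 and 8, a difference of 2.03 on the TMM scale without overlap. With the labelled test miR-148a-3p and miR-194-5p were higher in HCC, with edgeR adjusted p = 0.0125 for each on the spike-in scale. MiR-101b-3p was higher by 1.60 on the TMM scale and 2.90 on the spike-in scale, with no overlap on either, and did not pass the labelled test (edgeR adjusted p = 0.118). MiR-365-3p and miR-193a-5p, both of the study's panel of human HCC markers, differed by 1.00 and 1.15 on the TMM scale, with no overlap in miR-193a-5p alone.

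MiR-192 and miR-194 come from a pair of loci. Mir192 and Mir194-2 lie together on chromosome 19 (chr19:6264844-6264932 and chr19:6264643-6264728, GRCm38, plus strand), where GENCODE M21 gives no other gene. Mir215 and Mir194-1 lie together on chromosome 1 (chr1:185313581-185313692 and chr1:185313319-185313385), antisense to introns of Iars2. MiR-215-5p differs from miR-192-5p at 3 of 21 bases, none in the seed, yet it had 8680 to 14001 UMIs in the high-share and 10745 to 16284 in the low-share mice, a difference of -0.18 on the TMM scale. MiR-194-5p is made by both loci and its UMIs cannot be assigned to one. Its 3p arms can be: miR-194-2-3p of chromosome 19 had 92, 95, 124 and 98 UMIs in mice 1, 6, 2 and 5, 0, 11, 34 and 19 in mice 3, 7, 4 and 8, and 0 in 4 of 5 non-HCC mice. MiR-194-1-3p of chromosome 1 had 92, 115, 191 and 227 in the same high-share mice and 12, 12, 135 and 25 in mice 3, 7, 4 and 8, with 32 to 109 in non-HCC mice. Both arms were higher in the high-share mice, by 3.51 and 2.49 on the TMM scale without overlap. Both also reached the minimum only through these mice. The edgeR adjusted p of the labelled test was 0.0309 for the chromosome 19 arm and 0.288 for the chromosome 1 arm, and the difference between the arms was not tested.

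MiR-455-5p, whose gene lies in an intron of the collagen gene Col27a1 (mature form at chr4:63256867-63256888), had 777, 780, 2480 and 2305 UMIs in mice 1, 6, 2 and 5. Mice 3, 7, 4 and 8 had 59, 78, 526 and 395, and non-HCC mice 100 to 232. The difference was 3.03 on the TMM scale (SD 1.01 and 1.23) without overlap, and the labelled test gave an edgeR adjusted p of 0.0241.

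The largest difference of all was in miR-146b-5p, a miRNA induced by NF-kB signalling in inflammation, with its gene in an intron of Mfsd13a at chr19:46342762-46342870. It had 162309, 153144, 69467 and 77001 UMIs in mice 1, 6, 2 and 5. In mice 3, 7, 4 and 8 it had 1955, 2823, 9821 and 7036, and in the 5 non-HCC mice 3590, 3868, 2056, 4985 and 5886. The high-share mice stood far above all other mice, and the low-share mice overlapped with the non-HCC mice on the TMM scale. The difference was 4.69 on the TMM scale (SD 0.59 and 0.72), a 25.8-fold higher level, and 5.99 on the spike-in scale (SD 0.37 and 1.64). With pairs summed it was 4.50 on the TMM scale. The labelled test had it higher in HCC by 4.82 ± 1.22 (SE) log2 units on the spike-in scale (edgeR adjusted p = 0.0189). The other arm of the hairpin, miR-146b-3p, was higher by 2.54 on the TMM scale without overlap, with 721, 673, 196 and 199 UMIs in mice 1, 6, 2 and 5 and 36, 45, 186 and 66 in mice 3, 7, 4 and 8.

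MiR-146a-5p, from a separate gene on chromosome 11 (chr11:43374397-43374461), shares the seed and differs from miR-146b-5p at 2 of 22 bases. It had 84832, 79448, 80284 and 83161 UMIs in mice 1, 6, 2 and 5 and 31811, 38230, 105988 and 51892 in mice 3, 7, 4 and 8. The difference was 0.78 on the TMM scale without overlap and 2.07 on the spike-in scale with overlap, and non-HCC mice had 29005 to 54829. In mice 1 and 6 miR-146b-5p thus had more UMIs than miR-146a-5p, and in the other 11 mice it had fewer.

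MiR-34a-5p, induced by the tumor suppressor p53, had 8173, 7026, 7681 and 8988 UMIs in mice 1, 6, 2 and 5. It had 929, 1295, 3531 and 1254 in mice 3, 7, 4 and 8 and 1238, 2105, 977, 1552 and 1653 in the non-HCC mice. The high-share counts lay close together and above all others, while low-share mice overlapped with non-HCC mice. The difference was 2.47 on the TMM scale (SD 0.25 and 0.48), 5.55-fold, and 3.77 on the spike-in scale. The labelled test missed the threshold, with edgeR adjusted p = 0.0583 on the spike-in and 0.0509 on the TMM scale. Of the 4 members of the miR-34 family that reached the minimum, it was the one without overlap on either scale, and the other 3 differed by 0.02 to 0.62 on the TMM scale.

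MiR-21a-5p, abundant in many tissues and often raised in tumors, had 777820, 730846, 726899 and 732128 UMIs in mice 1, 6, 2 and 5 and 248484, 246407, 528629 and 309529 in mice 3, 7, 4 and 8. Non-HCC mice had 129316 to 411487. It was higher by 1.32 on the TMM scale (SD 0.14 and 0.17) and 2.61 on the spike-in scale, without overlap on either. Apart from miR-122-5p it was the largest entry in mice 1 and 6, where miR-16-5p led in every other mouse. The labelled test did not pass (edgeR adjusted p = 0.139 on the spike-in scale).

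**Figure D4:**
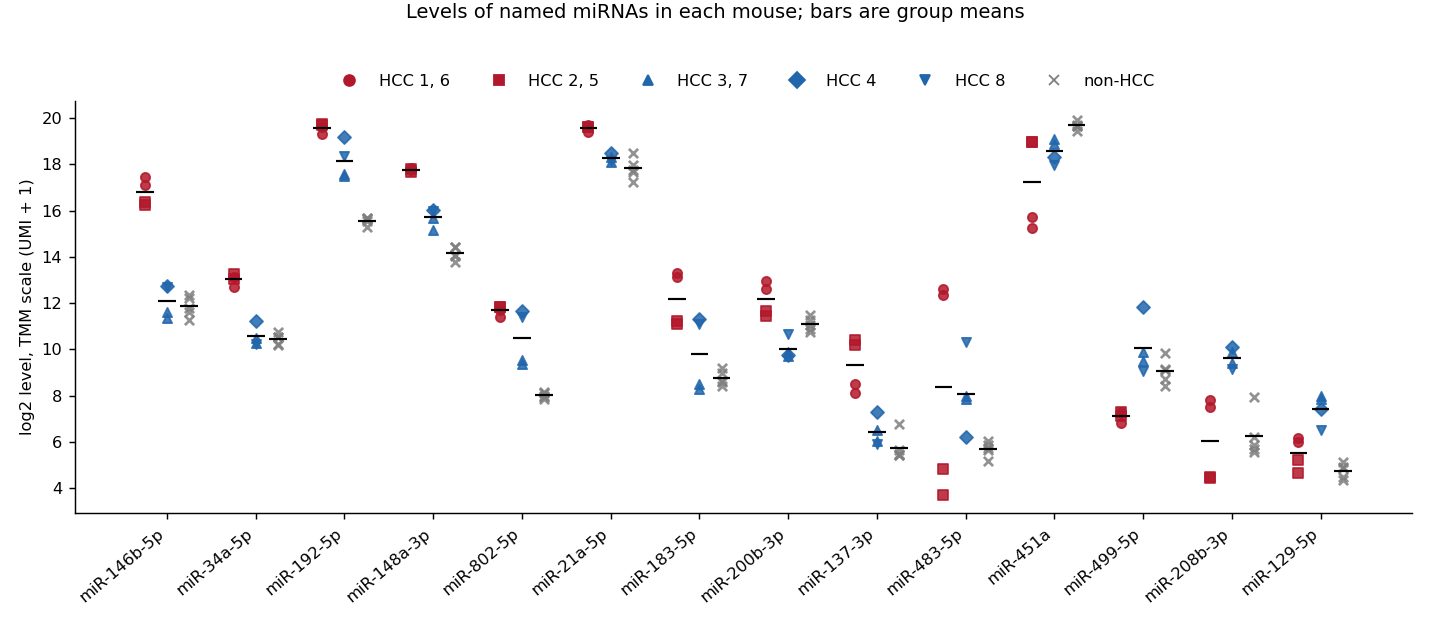
Log2 levels on the TMM scale of 14 miRNAs in each mouse, with high-share HCC mice in red, low-share HCC mice in blue and non-HCC mice in grey; marker shapes show the pairs of similar libraries and black bars the group means. MiR-34a-5p, miR-148a-3p and miR-21a-5p are tight within the high-share group, miR-146b-5p is higher in mice 1 and 6 than in mice 2 and 5 but above all other mice in each, miR-483-5p and miR-451a fall far apart into the 2 pairs, and mouse 4 (diamond) is highest in miR-499-5p.

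Epithelial miRNAs were higher in the high-share mice for some genomic clusters and not for others. Of 14 list members at the minimum, 7 lay above on the spike-in scale (50.0%) and 4 on the TMM scale (28.6%), against 11.2% of all on each, and the median differences were 2.31 and 1.01. Without mouse 4, 12 lay above on the spike-in scale (53.2% of all did) and 6 on the TMM scale (19.9% of all). The miR-200 family, which keeps epithelial cells from turning mesenchymal, comes from a pair of clusters. The chromosome 4 cluster (chr4:156053916-156055742, within introns of Ttll10) makes miR-200b, miR-200a and miR-429, and all 5 of its arms at the minimum lay above on the spike-in scale and 3 on the TMM scale, with differences of 0.68 to 2.16 on the TMM scale. The chromosome 6 cluster (chr6:124717917-124718346) makes miR-200c and miR-141, and its 2 arms differed by -0.34 and -0.10 with overlap. MiR-200b-3p had 7292, 6795, 2920 and 2567 UMIs in mice 1, 6, 2 and 5, 629, 853, 1272 and 1715 in mice 3, 7, 4 and 8, and 1780 to 3022 in non-HCC mice. MiR-200c-3p, which differs from it at 2 of 22 bases outside the seed, had 735, 621, 1920 and 1607 in the high-share mice and 1265, 1641, 1623 and 1357 in mice 3, 7, 4 and 8, with 3681 to 6562 in non-HCC mice. Against non-HCC mice, miR-200b-3p was 1.08 higher in high-share and 1.09 lower in low-share mice on the TMM scale, and the labelled test of all 8 HCC mice gave an edgeR adjusted p of 0.41. MiR-200c-3p was lower in HCC on the TMM scale by 1.82 log2 units (edgeR adjusted p = 0.00234), with 0.337 on the spike-in scale.

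MiR-183, miR-96 and miR-182, sensory and epithelial miRNAs of 1 cluster on chromosome 6 (chr6:30165962-30169732), moved together across mice. MiR-183-5p had 9122, 9631, 2159 and 1975 UMIs in mice 1, 6, 2 and 5, 277, 280, 3706 and 2314 in mice 3, 7, 4 and 8, and 404 to 604 in non-HCC mice. MiR-182-5p had 13161, 13319, 3316 and 3122 in the high-share mice and 531, 564, 11585 and 3477 in mice 3, 7, 4 and 8. Mice 3 and 7 were near the non-HCC counts, and mice 4 and 8 had more UMIs than mice 2 and 5, so the groups overlapped on the TMM scale in both. All 3 were higher in HCC in the labelled test, with edgeR adjusted p of 0.0173 for miR-183-5p, 0.0327 for miR-96-5p and 0.0116 for miR-182-5p on the spike-in scale.

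Red cell miRNAs were lower relative to other miRNAs, mainly in mice 1 and 6. The 9 members summed to 17.8% and 16.2% of the UMIs without miR-122 in mice 1 and 6, 36.2% and 35% in mice 2 and 5, 58.0%, 55.6%, 35.5% and 47.5% in mice 3, 7, 4 and 8, and 47.7% to 57.6% in non-HCC mice. No member separated the groups on either scale, and the median difference was -1.34 on the TMM and -0.04 on the spike-in scale, below the medians of all miRNAs on both. Without mouse 4, 4 of the 9 lay below on the TMM scale (44.4%, against 9.85% of all). MiR-451a, a red cell miRNA that bypasses Dicer, had 49786, 41265, 465176 and 470744 UMIs in mice 1, 6, 2 and 5 and 361531, 501965, 468591 and 274225 in mice 3, 7, 4 and 8, with 687850 to 1126503 in non-HCC mice. Mice 1 and 6 stood alone. MiR-16-5p had 678143, 559174, 2213214 and 2173765 in mice 1, 6, 2 and 5 and 1866026 to 3491688 in the low-share mice. Of the 9, all were lower by over 1 log2 unit in mice 1 and 6 than in mice 2 and 5 on the TMM scale, as were 164 of 528 miRNAs. Plasma had been screened for hemolysis by the study. The part of red cell RNA in the differences between mice was not tested. MiR-486a and miR-486b share most of their sequence, and their UMIs may be divided between them.

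Platelet, leukocyte and vessel miRNAs showed no common direction between the groups. Of 11, 1 lay above on the spike-in scale (9.09%, miR-146b-5p) and 2 on the TMM scale (18.2%, both miR-146 members), against 11.2% of all miRNAs on each. On the TMM scale 1 lay below (9.09%, against 3.41% of all), miR-126a-5p of endothelium, by -0.98. The medians were 1.18 on the spike-in and -0.11 on the TMM scale. Without mouse 4, 6 of them lay above on the spike-in scale (54.5%, near the 53.2% of all). In mouse 4 miR-126a-5p had 96296 UMIs against 11920 to 24694 in the other 7 HCC mice. In the labelled test on the TMM scale, 4 of the 11 were lower in HCC, where 1.52% of all miRNAs were. These were miR-142a-5p, miR-150-5p, miR-155-5p and miR-223-3p, miRNAs of blood leukocytes, and on the spike-in scale none was lower. MiR-150-5p, of mature lymphocytes, had 4207 to 7237 UMIs in the high-share group, 4192 to 13951 in the low-share group and 21020 to 63739 without HCC (edgeR adjusted p = 0.00041 on the TMM and 0.0957 on the spike-in scale), and its high-share and low-share means differed by -0.11 with overlap.

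Heart muscle miRNAs were lower in the high-share mice on the TMM scale. MiR-208a, miR-208b and miR-499 are encoded in introns of the myosin genes Myh6 (chr14:54949060-54949142), Myh7 (chr14:54975700-54975776) and Myh7b (chr2:155622880-155622958). They were the 3 lowest of the 18 miRNAs below, and the seed of miR-208a-3p differs from that of miR-499-5p at 1 base. MiR-208a-3p reached the minimum only through the low-share mice, so the minimum itself favours its direction. MiR-208b-3p had 202, 196, 19 and 19 UMIs in mice 1, 6, 2 and 5, 726, 596, 1587 and 602 in mice 3, 7, 4 and 8, and 51, 294, 61, 48 and 65 in the non-HCC mice. Low-share mice were above both other groups, with an 11.9-fold higher level than high-share mice on the TMM scale (log2 difference -3.58, SD 1.85 and 0.44). MiR-208a-3p had 51, 32, 39 and 58 UMIs in mice 1, 6, 2 and 5, 283, 203, 2460 and 182 in mice 3, 7, 4 and 8, and 216 to 612 in non-HCC mice, so here the high-share mice were the ones that stood apart from non-HCC mice. MiR-499-5p had 143, 121, 124 and 140 in the high-share mice, 725, 645, 5369 and 558 in mice 3, 7, 4 and 8, and 383 to 1133 in non-HCC mice. On the spike-in scale the high-share mean was also lower in the 3 miRNAs, by 2.28, 1.78 and 1.65 log2 units, with overlap. None passed the labelled test (edgeR adjusted p of 0.0708, 0.72 and 0.509).

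The other 4 muscle miRNAs did not separate the groups. MiR-133a-3p, of heart and skeletal muscle, had 1571, 1384, 13118 and 12510 UMIs in mice 1, 6, 2 and 5 and 7489, 11097, 87205 and 11900 in mice 3, 7, 4 and 8, with 4020 to 25228 in non-HCC mice. Muscle miRNAs together were 1.69% of the UMIs without miR-122 in mouse 4 and 0.0705% to 0.385% in the other 12 mice. Blood was drawn through the heart, and the part of the draw in these values was not tested. Without mouse 4, 3 of the 7 lay below on the TMM scale (42.9%, as with it), and 9.85% of all miRNAs did.

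**Figure D5:**
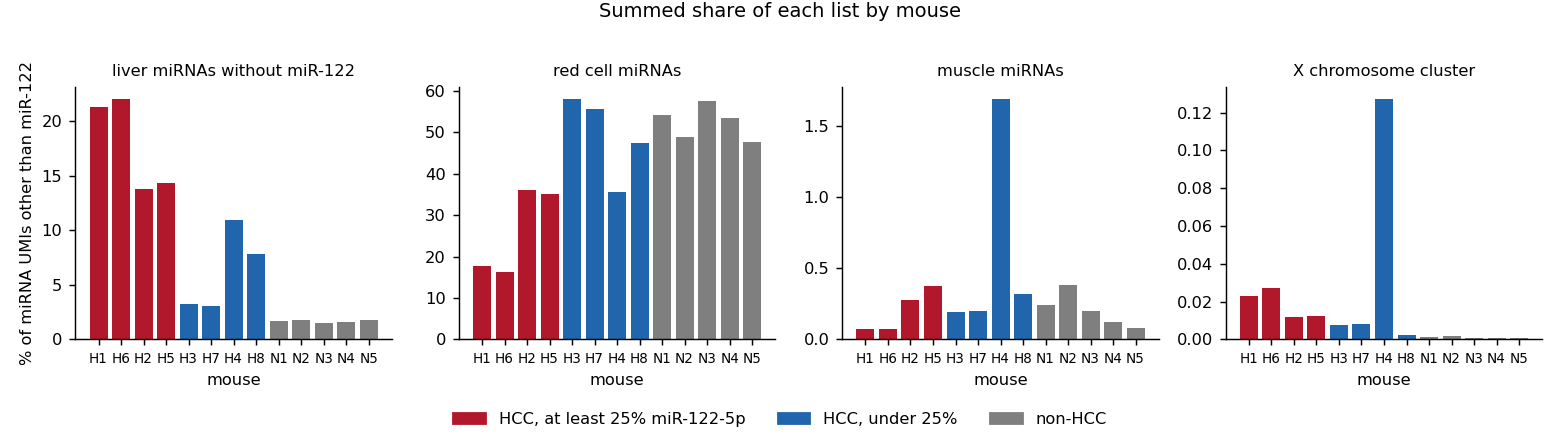
Summed UMIs of 4 lists as a percent of the miRNA UMIs other than miR-122, 1 bar for each mouse (H, HCC; N, non-HCC), on separate axes from 0. Liver miRNAs run from 13.8% to 22.0% in high-share mice, red cell miRNAs are lowest in mice 1 and 6, and mouse 4 leads in muscle miRNAs (1.69%) and in the X chromosome cluster (0.127%).

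Among the other miRNAs below on the TMM scale, several came from 1 cluster, noticed after the values were seen. The miR-322 and miR-503 cluster on the X chromosome (chrX:53048008-53054327), known from muscle differentiation and cell cycle arrest, had 10 arms at the minimum, of which 5 lay below (3.41% of all miRNAs did) and all 10 had a negative difference, from -1.23 to -0.42. Of these arms, miR-351-3p, which lay below, and miR-450b-5p reached the minimum only through the low-share mice. On the spike-in scale all 10 differences were positive, from 0.07 to 0.87, but under the median of 1.34. MiR-503-3p had 304, 227, 131 and 102 UMIs in mice 1, 6, 2 and 5 and 368, 405, 662 and 363 in mice 3, 7, 4 and 8. MiR-129-5p, known from brain, had 64, 68, 33 and 22 in the high-share mice and 193, 203, 246 and 96 in mice 3, 7, 4 and 8, with 22 to 35 in non-HCC mice. It reached the minimum only through the low-share mice. In the labelled test it was higher in HCC (edgeR adjusted p = 0.0189). On the spike-in scale its high-share and low-share levels overlapped, and mouse 4 stood apart from the other HCC mice (log2 level 8.28, next 6.85). MiR-6967-3p, miR-1298-3p, miR-126b-5p and miR-511-5p were lower by 1.63, 1.41, 1.22 and 1.19 log2 units on the TMM scale, and 41 to 76 UMIs of miR-6967-3p in high-share mice stood against 137 to 282 in low-share and 219 to 327 in non-HCC mice.

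MiR-137-3p, a neuronal miRNA that is also silenced in many tumors, was the neuronal list's exception. It had 335, 298, 1070 and 1225 UMIs in mice 1, 6, 2 and 5, 68, 57, 225 and 63 in mice 3, 7, 4 and 8, and 110, 51, 41, 45 and 47 in the non-HCC mice. The difference was 2.88 on the TMM scale (SD 1.16 and 0.62) and 4.17 on the spike-in scale without overlap on either, and the labelled test gave an edgeR adjusted p of 0.0208. None of the other 5 neuronal miRNAs at the minimum separated the groups on either scale with all 8 mice, and without mouse 4 the list had 4 of 6 above on the spike-in scale (66.7%, against 53.2% of all) and 1 on the TMM scale. MiR-3113-5p, the remaining one of the 10 largest differences on the spike-in scale, had 83, 123, 45 and 29 UMIs in mice 1, 6, 2 and 5 and 14, 0, 29 and 84 in mice 3, 7, 4 and 8, and overlapped on the TMM scale.

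Imprinted miRNAs divided the high-share group into its pairs. MiR-483, in an intron of the fetal growth factor gene Igf2 (chr7:142654924-142654996), and miR-675, in an exon of the neighbouring H19 (chr7:142577064-142577147), come from a locus that fetal liver expresses and adult liver silences. MiR-483-5p had 5750 and 5593 UMIs in mice 1 and 6, 25 and 11 in mice 2 and 5, 173, 225, 107 and 1348 in mice 3, 7, 4 and 8, and 39 to 60 in non-HCC mice. MiR-675-3p had 454, 345, 24 and 21 in mice 1, 6, 2 and 5, and 28, 42, 98 and 450 in mice 3, 7, 4 and 8, with at most 20 in non-HCC mice. Mice 1, 6 and 8 were thus high in both and mice 2 and 5 low. Between mice 1 and 6 and mice 2 and 5 the difference was 8.21 for miR-483-5p and 3.96 for miR-675-3p on the TMM scale, while the high-share and low-share means differed by 0.29 and 0.25. Both were higher in HCC in the labelled test (edgeR adjusted p = 0.0154 and 0.0134 on the spike-in scale).

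The Dlk1-Dio3 cluster on chromosome 12, a large imprinted miRNA cluster active in embryo and brain, went the other way. Of its 29 miRNAs at the minimum, 26 were higher by over 1 log2 unit in mice 2 and 5 than in mice 1 and 6 on the TMM scale, with a median of -2.62 for mice 1 and 6 minus mice 2 and 5, against -0.34 over all 528. The list had 99 entries, and some reached the minimum only through mice 2 and 5, so the minimum itself favours this direction. MiR-136-5p, with a mean of 67 UMIs, had 181 and 207 in mice 2 and 5 and 0 to 59 in the other 6 HCC mice. MiR-376b-3p had 1171 and 1298 UMIs in mice 2 and 5, 156 and 103 in mice 1 and 6, and 332, 338, 79 and 37 in mice 3, 7, 4 and 8. MiR-434-5p had 679 and 638 in mice 2 and 5, and 27 to 86 in the other 6 HCC mice. Against the low-share mice, 2 of the 29 lay above on the spike-in scale (6.9%) and 1 on the TMM scale (3.45%), under the 11.2% of all miRNAs on each. Without mouse 4 these were 9 (31.0%, against 53.2% of all) and 1. Of 76 members in the labelled test, 10 were higher in HCC on the spike-in scale, where 7.51% of all miRNAs were.

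A cluster of X-linked miRNAs known from male germ cells was higher in HCC than in non-HCC mice, and whether it separated the high-share from the low-share group depended on mouse 4. All 13 members at the minimum were above the non-HCC mice in the high-share group on the TMM scale (25.9% of all were), 5 were in the low-share group (13.4% of all), and none separated high from low with all 8 mice. The list had 30 entries, and the minimum was set on HCC mice, so it favours members that are high in HCC. Some reached it only through mouse 4, such as miR-465a-5p, with 366 UMIs there and 0 to 32 in the other HCC mice. The same 13 are counted without mouse 4. Without mouse 4, 12 of 13 lay above on the spike-in scale (92.3%, against 53.2% of all) and 4 on the TMM scale (30.8%, against 19.9% of all). Of 20 members in the labelled test, 15 were higher on the spike-in scale, where 7.51% of all miRNAs were. MiR-465c-5p had 439, 405, 316 and 281 UMIs in mice 1, 6, 2 and 5, 190, 209, 5805 and 27 in mice 3, 7, 4 and 8, and 10 to 20 in non-HCC mice. Mouse 4 thus had over 10 times the count of any other mouse and mouse 8 was near the non-HCC level (edgeR adjusted p = 0.00566 for HCC against non-HCC).

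Stellate cell and smooth muscle miRNAs were higher on average without separating the groups. None of 8 lay above on either scale, and the medians were 2.31 on the spike-in and 1.02 on the TMM scale. MiR-143-3p, of smooth muscle, had 34684, 33071, 43485 and 49300 UMIs in mice 1, 6, 2 and 5 and 8841, 9625, 58683 and 15470 in mice 3, 7, 4 and 8. Mouse 4 held the highest count, and without it 5 of 8 lay above on the TMM scale and 7 on the spike-in scale, where 19.9% and 53.2% of all miRNAs did.

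The remaining lists are set beside the 11.2% of all miRNAs that lay above on each scale. Of 9 human HCC plasma markers other than miR-122-5p, which the study took from published patients and compared with these mice, 2 lay above on the spike-in scale (22.2%, miR-34a-5p and miR-148a-3p) and 3 on the TMM scale (33.3%), with miR-193a-5p in addition, and with medians of 1.87 and 0.57. In the labelled test 4 of the 9 were higher in HCC on each scale (7.51% of all on the spike-in and 7.93% on the TMM scale). Without mouse 4, 9 lay above on the spike-in scale and 4 on the TMM scale, where 53.2% and 19.9% of all did. Of 16 miRNAs known as raised in liver tumors, 2 lay above on the spike-in scale (12.5%) and 3 on the TMM scale (18.8%), with medians of 1.02 and -0.28. The 3 were both arms of miR-21a and miR-222-5p, and at the other end miR-18a-5p of the miR-17 cluster differed by -1.41 on the TMM scale with overlap. Without mouse 4, 4 of the 16 lay above on the spike-in scale, and on the TMM scale 3 lay above and 3 below. With all 8 mice none of 19 let-7 arms and none of 6 miR-29 arms separated the groups, and of 8 miR-30 arms 1 did on the TMM scale (12.5%, miR-30a-3p, by 1.47). Without mouse 4, 6 of 6 miR-29 arms lay above on the spike-in scale (53.2% of all did) and 3 on the TMM scale (19.9% of all). Of the miR-30 arms 6 and 2 then lay above on these scales, and of the let-7 arms 8 and 3, with 2 let-7 arms below on the TMM scale (9.85% of all). Of 48 entries of repeat miRNAs related to the Sfmbt2 intron, 4 reached the minimum, and 3 of these lay above on the spike-in scale (75.0%) and 2 on the TMM scale (50.0%). They were miR-466d-3p and the joint entry of miR-669a-3p and miR-669o-3p on both scales and miR-669c-5p on the spike-in scale. These shares, the highest of any list, rest on few members. MiR-466d-3p reached the minimum only through the high-share mice, with 59 to 88 UMIs there and 16 to 52 in the low-share mice. Of 22 miRNAs named from miR-6896 to miR-7094, many of them mirtrons, 4 lay above on the spike-in scale (18.2%) and 1 on the TMM scale (4.55%). On the TMM scale 1 lay below (4.55%, against 3.41% of all).

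Among the 10 most abundant miRNAs, miR-192-5p and miR-21a-5p separated the groups on the TMM scale, and the other 8 did not separate them on either scale. These were miR-16-5p, miR-486b-5p, miR-451a, miR-25-3p, miR-93-5p, let-7i-5p, miR-486a-5p and miR-30a-5p, with differences of -1.79 to 0.81 on the TMM scale. With the pairs of similar libraries summed, the 10 largest differences on the spike-in scale had both high-share profiles above the 3 low-share profiles. This was fixed in advance, since they were chosen without overlap and a summed pair lies between its members on that scale. On the TMM scale all except miR-183-5p and miR-3113-5p did, and the 10 lowest lay below, from -3.58 to -0.91. TMM factors were computed anew for the sums, but a sum still lies near its members. The summing is therefore no separate support for these differences. With pairs summed, 93 miRNAs lay above on the spike-in scale and 75 above and 34 below on the TMM scale, where fewer profiles make separation easier.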

How the data were processed

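Plasma small RNA of 8 HCC and 5 non-HCC C3H mice was analysed. The authors isolated RNA from plasma with UniSP2 and UniSP4 added, built libraries with molecular barcodes, aligned reads to GRCm38, annotated miRNAs by miRBase 20 and deposited raw UMI counts, 1 column a mouse. The submitters' processing notes name FastQC and Bowtie2, and their versions are not given in the sources used here. Columns were assigned by the mouse names in the labels. A second count table, for F2 mice, has 53 columns whose names match no label, and none was used.

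From the counts as deposited, HCC mice were divided at 25% miR-122-5p of miRNA UMIs. Levels are log2 of the count plus 1 over a library factor, either the spike-in mean that the study's methods use or the TMM factor without both miR-122 arms. MiRNAs with a mean of at least 50 UMIs in the 8 HCC mice (528 of 1824, holding 99.8% of UMIs without miR-122) were described by difference of means, SD and overlap. HCC was compared with non-HCC by the edgeR 4.0.16 quasi-likelihood test in R 4.3.3 over miRNAs that reached 5 UMIs in 5 or more mice, with Benjamini-Hochberg adjustment at 0.05. Alternatives used limma 3.58.1 and DESeq2 1.42.0, and other steps Python 3.11.15 with numpy 2.4.6 and pandas 2.3.3. Scripts were tested on simulated data.

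Named miRNAs were the 10 largest differences without overlap on the spike-in scale, the 10 smallest on the TMM scale, the 10 most abundant and members of the lists. The division, the members and the lists were chosen with earlier results of these data known. Nothing beyond the mouse names says that samples are independent, and p-values measure the spread between these samples. Depth was 9513136 to 14247488 miRNA UMIs, which limits precision for counts near 10.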

Additional observations from a re-analysis of the deposited data

Results flagged for a closer look

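The 30 miRNAs named by size of difference or abundance, both miR-122 arms, the spike-ins, the miRNA total and the miR-122-5p share were each examined on a log2 scale for a mouse that stood apart within its group by Dixon's test at its 95% value. Levels given are on the spike-in scale. Of 144 searches 11 gave such a mouse, and chance gives about 1 in 20. HCC mouse 4 was the mouse in 10 of them. In miR-208a-3p it stood at 11.6, with the next mouse at 7.28 in the low-share group and 7.41 among all HCC mice. In miR-499-5p it stood at 12.73, with the next at 8.63 and 8.67. It was also highest among all HCC mice in miR-129-5p (8.28, next 6.85) and miR-511-5p (8.69, next 7.10). In miR-503-3p it stood at 9.71, with the next at 7.99 in the low-share group and 8.58 among all HCC mice. In the low-share group it was highest in miR-1298-3p (8.04, next 6.43) and miR-126b-5p (10.97, next 8.00). The remaining one was non-HCC mouse 5 in miR-194-2-3p, at 4.09, where the other 4 non-HCC mice were listed at 0 UMIs.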

How the results depend on the processing

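Counts of miRNAs higher in HCC than in non-HCC mice ran from 44 to 157 when 1 mouse was left out, against 109 with all. Without non-HCC mouse 1, 2, 3 or 4 they were 44, 47, 47 and 53, and without HCC mouse 2 they were 65. Limma called 44 higher, DESeq2 173 with its own size factors and 181 with spike-in factors. No miRNA was called lower with spike-in factors in edgeR, in any such leave-out, or in limma, but 27 were with TMM, 22 with TMM without miR-122, 1 with UniSP4 alone, 49 with DESeq2 and 2 with DESeq2 on spike-in factors. With the replicate block, over numbers 1 to 5, 146 were higher, against 165 in the same 10 mice without it, an alternative chosen after seeing the data. The numbers do not pair the mice: same-numbered mice correlated from -0.131 to 0.0707, and 1 of 5 correlated best with its own number.

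For high against low share, the count above on the spike-in scale was 59 and ran from 59 to 281 when 1 HCC mouse was left out (281 without mouse 4, 152 without mouse 1). Leaving out a mouse can only add miRNAs without overlap, in either direction and on either scale. Such ranges therefore cannot fall under the count with all mice. It was 19 with a mean of at least 500 UMIs, where 211 miRNAs remain, and 93 with pairs summed. The count below was 0 and ran from 0 to 2. It was 18 with TMM, 27 as a share of UMIs without miR-122, 1 with UniSP4 alone, 7 with no filter, 1 with pairs summed and 34 with pairs summed and TMM. On the TMM scale, in alternatives chosen after seeing the data, the count above ran from 61 to 105 and the count below from 18 to 52 when 1 HCC mouse was left out (105 and 52 without mouse 4, 29 below without mouse 1, 34 below without mouse 6), and 34 were below with pairs summed. Differences below 0 on the TMM scale turned to 0.07 in miR-503-3p, 0.08 in miR-126b-5p, 0.11 in miR-511-5p and 0.18 in miR-542-5p on the spike-in scale, and to 0 and 0.07 in the last 2 with UniSP4 alone. The cause was not tested.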
